A study of Mus musculus with 18 samples.

Results

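The 10 genes described here are the mouse genes of MHC class I antigen processing named Tap1, Tap2, Psmb8, Psmb9, Psmb10, Tapbp, B2m, H2-K1, H2-D1 and Nlrc5, taken as single rows from a table of 20979 genes in 18 testis libraries. They were chosen by their RPKM values in these same data, since some of them differed between HFD_STZ_AOS, HFD_STZ, AOS and control libraries, so their differences among those groups are given as a description, with no test. All 10 passed the filter for testing (at least 1 RPKM in at least 3 libraries), as did 13874 genes in all. RPKM scales reads by the length of a gene and by the mapped reads of a library, so levels may be compared between genes.

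The study set FMT and AOS against damage of the testis by STZ and a high fat diet. Testes came from ICR mice, an outbred stock, aged 10 weeks, and each group had 3 libraries of total RNA. HFD_STZ_AOS_FMT and HFD_STZ_control_FMT mice had the high fat diet, STZ and an FMT that the labels name for AOS at 10 mg/kg or for control. HFD_STZ_AOS mice had the diet, STZ and AOS at 10 mg/kg, and HFD_STZ mice had the diet and STZ alone. AOS mice had AOS at 10 mg/kg without the diet, and control mice had none of these. STZ (streptozotocin) kills beta cells of the pancreas, FMT is the transfer of fecal microbiota, and AOS is not spelled out in the labels. No label says how many animals or donors stand behind a library, so the spread between libraries may be partly technical.

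Class I molecules show fragments of a cell's own proteins to CD8 T cells. The proteasome cuts the proteins, and interferon gamma replaces its cutting subunits with Psmb8, Psmb9 and Psmb10, which gives the immunoproteasome. Tap1 and Tap2 pair to form the peptide pump of the endoplasmic reticulum, tapasin (Tapbp) holds an empty class I molecule beside that pump, and the molecule itself is a heavy chain such as H2-K1 or H2-D1 bound to beta 2-microglobulin (B2m). Nlrc5 is a transactivator of class I genes. The seminiferous epithelium of the testis is known as an immune-privileged site in which germ cells carry little class I.

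Tap1, Tap2, Psmb8 and Psmb9 are neighbours within 34335 bases of chromosome 17 (34181987 to 34216321, GENCODE vM21 annotation of GRCm38/mm10). Psmb9 (34181987 to 34187764, minus strand) and Tap1 (34187553 to 34197225, plus strand) overlap head to head at their starts, and Psmb8 (34197721 to 34201454) and Tap2 (34203527 to 34216321) follow on the plus strand. H2-K1 lies on the same chromosome at 33996017 to 34000347, Tapbp at 33915899 to 33929292 and H2-D1 at 35262730 to 35267499. B2m lies on chromosome 2 (122147686 to 122153083), and Psmb10 (105935735 to 105938444) and Nlrc5 (94434356 to 94527272) lie on chromosome 8.

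The RefSeq promoter windows of GRCm38.p6, 250 bases before to 50 bases after a start, held entries for 8 of the 10 genes, with none used here for Tap2 and Nlrc5. Tap1 and Psmb8 are shown as neighbours on chromosome 17, and B2m and H2-K1 as members whose HFD_STZ_AOS and HFD_STZ groups overlapped. Capitals mark 3 motifs searched on both strands: AANNGAAA (an interferon regulatory factor core), GGGNNTTCC (a kappa B motif) and TGACG (a CRE-like motif).
Tap1 (chr17:34187306-34187605, plus strand): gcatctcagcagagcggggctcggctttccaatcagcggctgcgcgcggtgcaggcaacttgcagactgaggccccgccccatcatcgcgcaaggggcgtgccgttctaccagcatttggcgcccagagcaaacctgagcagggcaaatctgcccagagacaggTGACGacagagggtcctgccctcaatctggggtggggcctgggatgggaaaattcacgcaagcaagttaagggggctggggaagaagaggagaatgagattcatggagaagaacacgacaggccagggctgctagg
Psmb8 (chr17:34197945-34198244, plus strand): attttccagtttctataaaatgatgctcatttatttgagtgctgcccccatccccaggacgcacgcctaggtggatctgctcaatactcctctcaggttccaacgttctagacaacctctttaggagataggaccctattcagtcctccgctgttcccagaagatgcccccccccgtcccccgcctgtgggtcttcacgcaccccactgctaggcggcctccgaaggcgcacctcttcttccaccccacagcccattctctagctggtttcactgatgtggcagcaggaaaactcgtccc
B2m (chr2:122147437-122147736, plus strand): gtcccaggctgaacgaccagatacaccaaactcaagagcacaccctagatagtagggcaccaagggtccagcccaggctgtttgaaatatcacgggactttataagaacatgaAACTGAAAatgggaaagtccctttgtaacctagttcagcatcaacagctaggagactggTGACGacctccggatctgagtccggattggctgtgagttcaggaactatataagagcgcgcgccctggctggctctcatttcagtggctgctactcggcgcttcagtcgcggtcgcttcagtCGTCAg
H2-K1 (chr17:34000298-34000597, minus strand): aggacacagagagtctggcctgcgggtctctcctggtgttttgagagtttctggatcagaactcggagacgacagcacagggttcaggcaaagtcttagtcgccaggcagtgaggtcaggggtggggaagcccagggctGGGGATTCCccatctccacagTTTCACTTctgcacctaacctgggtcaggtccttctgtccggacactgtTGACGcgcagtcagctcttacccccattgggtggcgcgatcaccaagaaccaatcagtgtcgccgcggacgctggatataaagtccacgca

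The Tap1 window overlapped the Psmb9 window by 275 bases on opposite strands, with 226 bases between the 2 RefSeq starts used. Its single TGACG match is therefore also the one of Psmb9. The interferon regulatory factor core was found in 3 of 8 windows, those of B2m, H2-K1 and H2-D1, and in 24.2% of 27025 RefSeq promoters. The kappa B motif was found in H2-K1 and H2-D1, and in 5.72% of all promoters. TGACG was found in 5 of 8 windows, those of Tap1, Psmb9, B2m, H2-K1 and H2-D1, and in 21% of all promoters. CCAAT, not drawn in capitals, was found in 6 of 8 windows against 37.9% of all promoters. These matches describe letters in a window of the reference genome and not sites of binding.

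The libraries held testis RNA by its markers: Ddx4, a helicase of germ cells, was at 206 to 237 RPKM, and Cyp17a1, a steroid hydroxylase of Leydig cells, at 206 to 375 RPKM. The sum of RPKM was 588081 to 646822 in a library, with 13022 to 13490 genes at 1 RPKM or more. Low values differ by steps of about 1 read, which puts the depth of a library at roughly 12620000 to 14440000 reads. Pearson's r across genes, which are not independent replicates, was 0.988 to 0.995 for libraries within a group and 0.984 to 0.994 for libraries of different groups. Crisp1, a gene of the epididymis, exceeded 100 RPKM in 4 libraries (HFD_STZ_AOS_FMT replicate 3, HFD_STZ_control_FMT replicate 2, HFD_STZ_AOS replicate 3 and control replicate 3) and was under that level in the other 14.

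Tap1, the first subunit of the peptide pump, varied most among the 10 genes, 14.2-fold between its lowest and highest library. Its levels were 5.09, 3.87 and 3.07 RPKM in HFD_STZ_AOS_FMT and 2.99, 0.59 and 1.78 RPKM in HFD_STZ_control_FMT. They were 0.53, 1.09 and 1.15 RPKM in HFD_STZ_AOS and 5.20, 3.35 and 6.68 RPKM in HFD_STZ, so every HFD_STZ_AOS library was below every HFD_STZ library. Without the diet Tap1 was at 3.79, 7.52 and 3.72 RPKM in AOS, against 2.87, 0.73 and 3.89 RPKM in control. The second AOS library was the highest of all 18, and the second control library lay with the HFD_STZ_AOS libraries.

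Tap2, the partner of Tap1 in the pump, followed the same order of group means. Its levels were 2.68, 3.09 and 2.22 RPKM in HFD_STZ_AOS_FMT and 2.52, 1.13 and 1.12 RPKM in HFD_STZ_control_FMT. HFD_STZ_AOS libraries had 0.90, 1.36 and 1.25 RPKM, and HFD_STZ libraries 3.46, 2.79 and 4.17 RPKM. AOS libraries had 1.79, 4.36 and 2.15 RPKM, and control libraries 1.71, 0.98 and 2.20 RPKM. The extremes stood in the same places as for Tap1, with the first HFD_STZ_AOS library lowest and the second AOS library highest.

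Psmb9, the immunoproteasome subunit that takes the place of Psmb6, was at 4.0, 5.10 and 3.02 RPKM in HFD_STZ_AOS_FMT and 3.63, 1.19 and 2.11 RPKM in HFD_STZ_control_FMT. Its levels were 1.11, 0.54 and 1.52 RPKM in HFD_STZ_AOS and 4.63, 3.30 and 4.39 RPKM in HFD_STZ. In AOS libraries it was at 2.36, 6.56 and 3.49 RPKM, against 3.63, 0.90 and 2.43 RPKM in control libraries. The HFD_STZ_AOS and HFD_STZ groups did not overlap, while AOS and control did, with the second library of each at the extremes of this pair.

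Psmb8, which takes the place of Psmb5, had the lowest mean of the neighbours over the 18 libraries. It was at 1.29, 2.03 and 1.55 RPKM in HFD_STZ_AOS_FMT and 2.17, 0.82 and 2.18 RPKM in HFD_STZ_control_FMT. It was at 1.06, 0.94 and 1.35 RPKM in HFD_STZ_AOS, against 2.14, 2.80 and 3.60 RPKM in HFD_STZ. AOS libraries had 1.55, 2.58 and 2.06 RPKM and control libraries 1.49, 0.59 and 1.19 RPKM, and here the groups of both pairs lay apart. At the estimated depth these low levels rest on about 14 to 79 reads per library for Psmb8, 10 to 125 for Psmb9, 42 to 211 for Tap2 and 21 to 313 for Tap1.

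**Figure D1:**
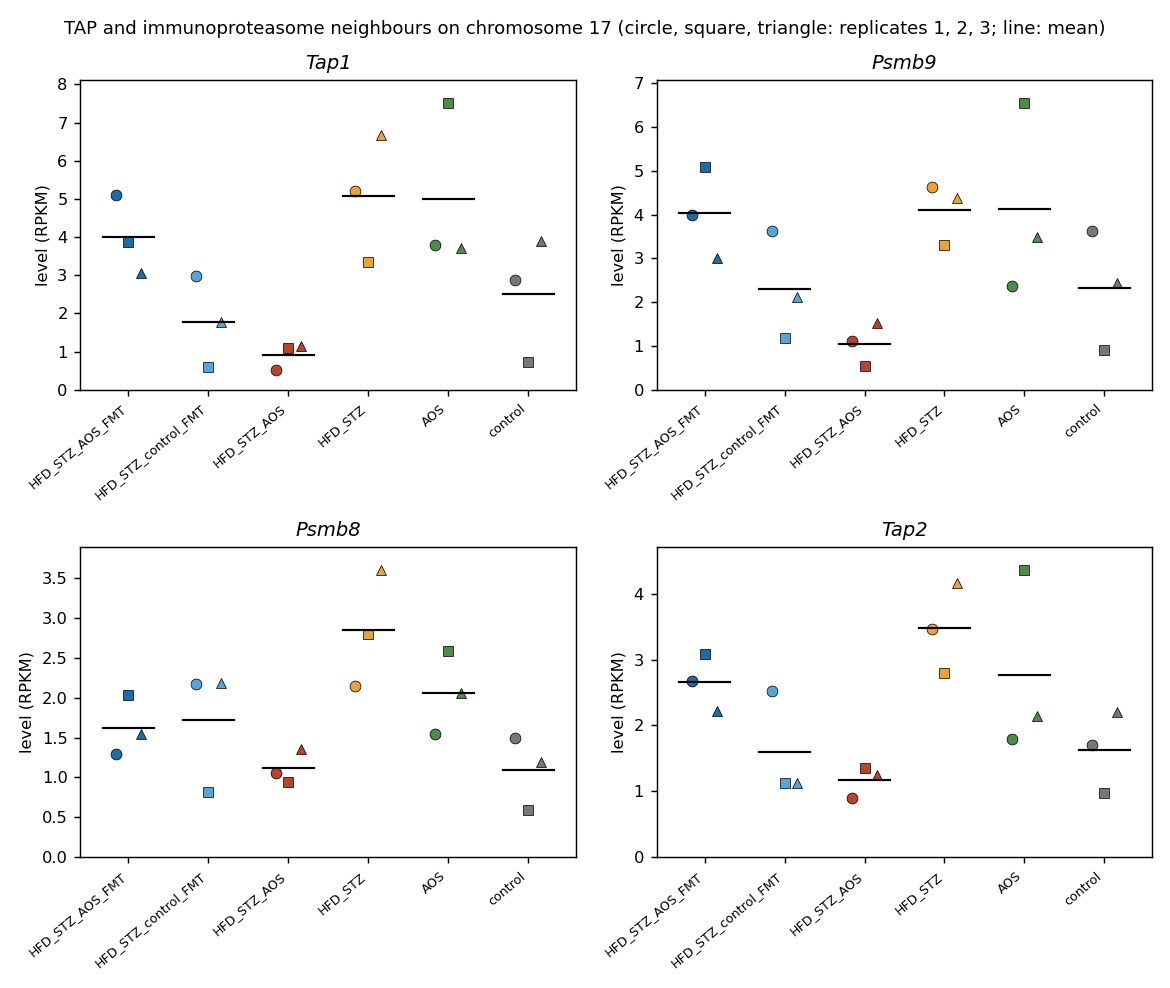
Level in RPKM of Tap1, Psmb9, Psmb8 and Tap2 in each of 18 testis libraries, by group; symbols are the 3 replicates and lines the group means, on axes that start at 0. All 3 HFD_STZ_AOS points of each gene lie below all 3 HFD_STZ points, and Tap1 reaches 7.52 RPKM in the second AOS library.

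The order of the group means was HFD_STZ, AOS, HFD_STZ_AOS_FMT, control, HFD_STZ_control_FMT and HFD_STZ_AOS, from high to low, for Tap1 and Tap2. Tap1 averaged 5.08 ± 1.7, 5.01 ± 2.2, 4.01 ± 1.0, 2.50 ± 1.6, 1.79 ± 1.2 and 0.923 ± 0.34 RPKM in that order (SD, n = 3 each). Of the neighbours in this order, HFD_STZ_AOS_FMT and control differed by more than their pooled SD for Tap1 and Tap2, and no other adjacent groups did. For Psmb9 this held for HFD_STZ_AOS_FMT and control and for HFD_STZ_control_FMT and HFD_STZ_AOS. Psmb9 had the same order except that AOS, at 4.14 ± 2.2 RPKM, stood just above HFD_STZ, at 4.11 ± 0.71 RPKM. Psmb8 was lowest in HFD_STZ_AOS, at 1.12 ± 0.21 RPKM, and in control, at 1.09 ± 0.46 RPKM, which did not differ beyond their spread.

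Psmb10, the immunoproteasome subunit encoded on chromosome 8, showed no such separation of HFD_STZ_AOS and HFD_STZ. It was at 2.61, 2.23 and 1.56 RPKM in HFD_STZ_AOS_FMT and 2.63, 2.30 and 3.17 RPKM in HFD_STZ_control_FMT. It was at 2.58, 2.43 and 3.43 RPKM in HFD_STZ_AOS, against 2.16, 2.00 and 2.73 RPKM in HFD_STZ, with overlapping groups. AOS libraries had 2.26, 1.73 and 2.27 RPKM and control libraries 2.53, 1.77 and 1.79 RPKM. Its mean was thus highest in HFD_STZ_AOS, the group in which Tap1, Tap2 and Psmb9 were lowest. No adjacent groups in the order of Psmb10 means differed by more than their pooled SD.

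The immunoproteasome subunits stood far below the subunits they replace in every library. Psmb8 amounted to 1.13% to 6.13% of the RPKM of Psmb5, Psmb9 to 0.418% to 5.38% of that of Psmb6, and Psmb10 to 1.26% to 2.98% of that of Psmb7. The share of Psmb9 was 0.418% to 1.25% in HFD_STZ_AOS and 2.97% to 4.03% in HFD_STZ. Psmb6 itself, a standard cutting subunit, was at 122 to 129 RPKM in HFD_STZ_AOS and 111 to 121 RPKM in HFD_STZ. The ranges of Psmb9's share did not overlap between these groups, and Psmb6 was higher, not lower, in HFD_STZ_AOS.

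H2-K1, a classical heavy chain, was at 33.79, 34.24 and 33.97 RPKM in HFD_STZ_AOS_FMT and 31.78, 29.53 and 35.97 RPKM in HFD_STZ_control_FMT. It was at 31.63, 28.57 and 40.38 RPKM in HFD_STZ_AOS, against 33.65, 32.32 and 34.13 RPKM in HFD_STZ. AOS libraries had 32.75, 33.77 and 31.32 RPKM and control libraries 26.68, 26.54 and 31.75 RPKM. Its range over 18 libraries was 1.52-fold, and the control group held its lowest levels.

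B2m, the light chain, was at 81.20, 72.19 and 105.43 RPKM in HFD_STZ_AOS_FMT and 78.59, 74.87 and 105.44 RPKM in HFD_STZ_control_FMT. HFD_STZ_AOS libraries had 79.61, 59.87 and 92.72 RPKM and HFD_STZ libraries 94.38, 77.92 and 79.35 RPKM. AOS libraries had 51.87, 65.64 and 62.47 RPKM and control libraries 60.69, 45.03 and 83.21 RPKM. The group means lay between 86.3 RPKM in HFD_STZ_control_FMT and 59.99 RPKM in AOS, and no adjacent groups in that order differed by more than their pooled SD.

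H2-D1, the other heavy chain, was highest in the third HFD_STZ_control_FMT library, at 47.4 RPKM, and lowest in the first AOS library, at 21.3 RPKM. Its group means were 33.2 ± 8.3 RPKM in HFD_STZ_AOS_FMT, 38.5 ± 9.2 in HFD_STZ_control_FMT, 33.4 ± 8.9 in HFD_STZ_AOS, 35.2 ± 2.0 in HFD_STZ, 28.2 ± 6.3 in AOS and 27.5 ± 5.3 in control (SD, n = 3 each). Tapbp, the loading chaperone tapasin, was the most even member, at 18.1 to 25.7 RPKM in all libraries and 1.42-fold between the extremes. Nlrc5, the transactivator, was low throughout, at 0.24 to 1.57 RPKM, and its single low value of 0.24 RPKM was in the first HFD_STZ library, where Tap1 stood at 5.20 RPKM.

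**Figure D2:**
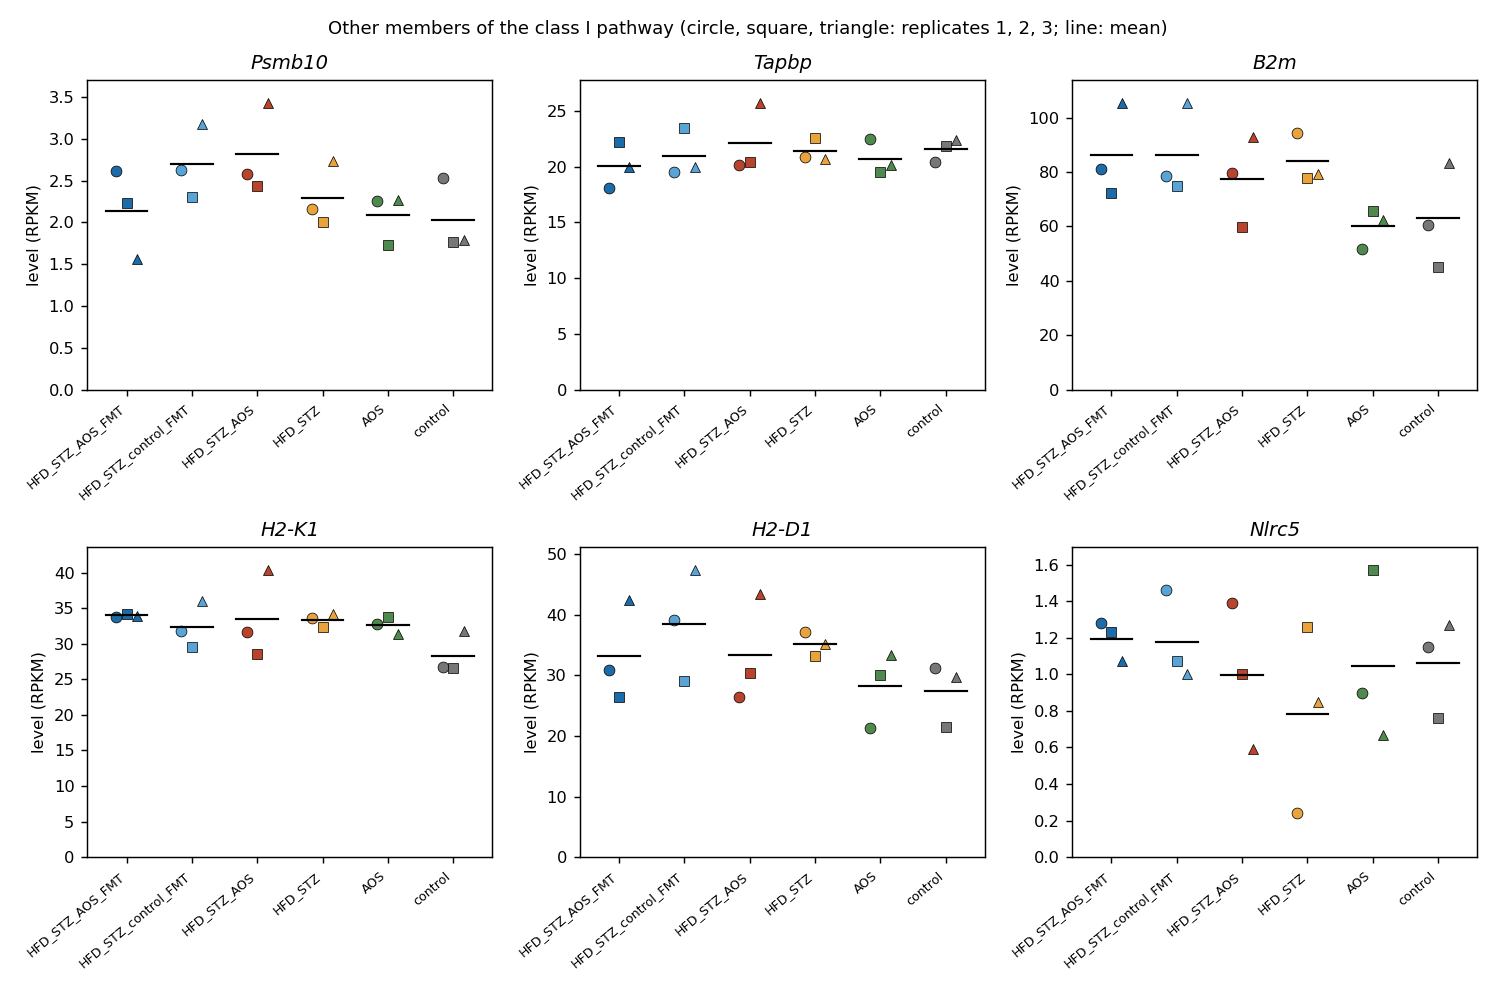
Level in RPKM of Psmb10, Tapbp, B2m, H2-K1, H2-D1 and Nlrc5 in each of 18 testis libraries, by group; symbols are the 3 replicates and lines the group means, on axes that start at 0. The HFD_STZ_AOS and HFD_STZ points overlap for all 6 genes, and Tapbp stays between 18.1 and 25.7 RPKM.

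Library by library, the chromosome 17 neighbours varied together and more widely than the other members. Taken as the mean deviation of log2(RPKM + 1) from each gene's own mean, the 4 neighbours stood highest in the second AOS library, at 0.87, and lowest in the second control library, at -0.85, with an SD of 0.54 over 18 libraries. The other 6 members lay between -0.32 and 0.24 on that scale, with an SD of 0.13. Their value of -0.32 was also in the second control library, where 5 of the 6 lay below their own medians, as they did in the second HFD_STZ_AOS and the third AOS library. All 4 neighbours lay below their own medians in 5 libraries: the 3 HFD_STZ_AOS libraries, the second HFD_STZ_control_FMT library and the second control library. The mean deviation was -0.78, -0.73 and -0.49 in the HFD_STZ_AOS libraries and -0.76 in the second HFD_STZ_control_FMT library. All 4 lay above their own medians in every HFD_STZ library, with mean deviations of 0.54, 0.32 and 0.79. A mean over genes that vary apart has a smaller SD, so 0.54 and 0.13 overstate the gap between single genes. Gene by gene the SD was 0.77 for Tap1, 0.64 for Psmb9, 0.47 for Tap2 and 0.40 for Psmb8. It was 0.33 for B2m, 0.31 for H2-D1, 0.26 for Nlrc5, 0.21 for Psmb10, 0.14 for H2-K1 and 0.11 for Tapbp.

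The 6 pairs among Tap1, Tap2, Psmb8 and Psmb9 had Pearson's r of 0.743 to 0.930 over the 18 libraries (Spearman's rho 0.615 to 0.899), given as a description. Without the 2 libraries farthest from the median these r values were 0.684 to 0.917, and within groups, as deviations from the group means, they were 0.600 to 0.865. The 24 pairs of a neighbour with another member had r of -0.373 to 0.475, with a median of 0.114, and as deviations from the group means -0.356 to 0.563, with a median of 0.358. Among the 15 pairs of the other 6 members, r ranged from -0.323 to 0.815, and the highest was that of the class I chains B2m and H2-D1. The points share libraries and a low read number. The loci of Tap1 and Psmb9 overlap on opposite strands. Stretches of 36 bases were compared between members on the same strand only, so a stretch shared across this overlap could not be found.

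**Figure D3:**
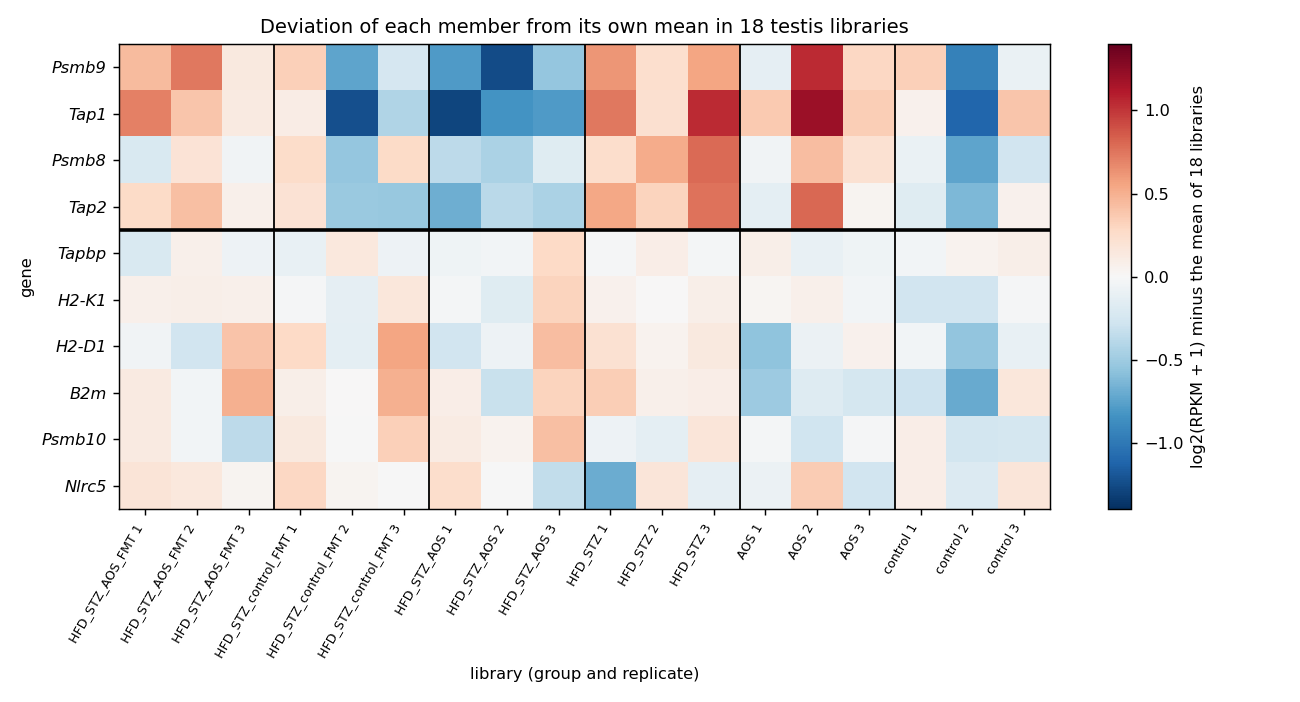
Deviation of log2(RPKM + 1) of each gene (rows) from its own mean over 18 testis libraries (columns, by group and replicate), red for higher and blue for lower. The 4 upper rows, Psmb9, Tap1, Psmb8 and Tap2, share their blue columns in HFD_STZ_AOS, the second HFD_STZ_control_FMT and the second control library, while the 6 lower rows are paler. In the second control library 5 of those 6 also lie below their own medians.

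AOS given with the diet and STZ was compared with the diet and STZ alone. Of the 10 members, 4 had groups that did not overlap with HFD_STZ_AOS lower, against 9.8% of all genes tested, and 0 had HFD_STZ_AOS higher, against 7.37%. Since this comparison was used to choose the members, nothing is read from that count. The log2 differences were -1.64 ± 0.38 for Tap1, -1.33 ± 0.34 for Psmb9, -1.04 ± 0.24 for Tap2 and -0.85 ± 0.22 for Psmb8 (± standard error of the fit, on the log2(RPKM + 1) scale, which understates changes of low genes). Tap1 averaged 0.923 ± 0.34 RPKM in HFD_STZ_AOS and 5.08 ± 1.7 RPKM in HFD_STZ (SD, n = 3 each). The other 6 members had differences of -0.13 to 0.21, with a median of 0.02, against -1.18 for the 4 neighbours and -0.01 for all genes tested. The mean difference of the 4 neighbours minus that of the other 6 was -1.25, and with any 1 library of the pair left out it lay between -1.37 and -1.14. Epididymis markers summed to 306.6 to 542.2 RPKM in HFD_STZ_AOS and 277.1 to 294.1 RPKM in HFD_STZ. Germ cell markers summed to 49010 to 56670 RPKM in HFD_STZ_AOS and 43550 to 49230 RPKM in HFD_STZ. The part of both in these results was not tested.

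HFD_STZ against control gave the diet and STZ without AOS or FMT. Tap2, Psmb8, H2-K1 and H2-D1 had groups that did not overlap with HFD_STZ higher, 4 of 10 members against 11.7% of all genes tested, and 0 had HFD_STZ lower, against 4.53%. Psmb8 averaged 2.85 ± 0.73 RPKM in HFD_STZ and 1.09 ± 0.46 RPKM in control, a log2 difference of 0.89 ± 0.22. The differences were 0.89 ± 0.38 for Tap1, 0.78 ± 0.24 for Tap2 and 0.70 ± 0.34 for Psmb9. Those of the class I chains were smaller, at 0.45 ± 0.21 for B2m, 0.36 ± 0.22 for H2-D1 and 0.23 ± 0.10 for H2-K1. Without the second control library the differences were 0.44 for Tap1, 0.35 for Psmb9, 0.23 for B2m and 0.20 for H2-D1. Summed macrophage markers stood at 67.4 to 70.5 RPKM in HFD_STZ and 60.3 to 62.5 RPKM in control, and Sertoli cell markers at 126.3 to 129.9 RPKM in HFD_STZ and 112.8 to 121.8 RPKM in control, and their part in the result was not tested.

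AOS against control gave AOS without the diet, and all 4 neighbours had higher means in AOS. The log2 differences were 0.85 ± 0.38 for Tap1, 0.64 ± 0.34 for Psmb9, 0.56 ± 0.22 for Psmb8 and 0.49 ± 0.24 for Tap2. Only Psmb8 had groups that did not overlap, 1 of 10 members with AOS higher against 7.76% of all genes, and 0 had AOS lower, against 14.8%. The other 6 members differed by -0.06 to 0.20. Without the second control library Tap1 differed by 0.41, Tap2 by 0.29 and Psmb9 by 0.28, and without the second AOS library Tap2 differed by 0.20 and Psmb9 by 0.32. Germ cell markers summed to 52480 to 54110 RPKM in AOS and 41730 to 47670 RPKM in control, and Leydig cell markers to 2536 to 3457 RPKM in AOS and 3465 to 3988 RPKM in control, so both stood apart in this comparison, and their part in it was not tested.

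The FMT groups were each set against HFD_STZ, and both comparisons use the same HFD_STZ libraries. HFD_STZ_control_FMT had log2 differences of -1.18 ± 0.38 for Tap1, -0.82 ± 0.24 for Tap2, -0.68 ± 0.34 for Psmb9 and -0.53 ± 0.22 for Psmb8. Its groups did not overlap for Tap1 and Tap2, 2 of 10 members with HFD_STZ_control_FMT lower, against 16% of all genes, and 0 had it higher, against 8%. Limma called 0.00721% of all genes lower and 0% higher in that comparison. Without the second HFD_STZ_control_FMT library the differences were -0.83 for Tap1, -0.42 for Psmb9 and -0.26 for Psmb8. HFD_STZ_AOS_FMT had differences of -0.26 ± 0.38 for Tap1, -0.28 ± 0.24 for Tap2, -0.03 ± 0.34 for Psmb9 and -0.54 ± 0.22 for Psmb8. Here Psmb8 alone had groups that did not overlap, 1 of 10 members with HFD_STZ_AOS_FMT lower, against 11.6% of all genes, and 0 had it higher, against 7.82%. Limma called 0.0144% of all genes higher and 0% lower. The other members differed by -0.10 to 0.34 in both comparisons, and the largest of these belonged to Nlrc5 with its single low HFD_STZ library. Without that library Nlrc5 differed by 0.10 in HFD_STZ_AOS_FMT and 0.084 in HFD_STZ_control_FMT. With 1 library left out Tap1 in HFD_STZ_AOS_FMT lay between -0.48 and -0.07, and Tap2 was -0.17 without the third HFD_STZ library. Adipocyte markers summed to 52.3 to 145.5 RPKM in HFD_STZ_AOS_FMT, 43.0 to 149.7 RPKM in HFD_STZ_control_FMT and 14.5 to 26.4 RPKM in HFD_STZ. Epididymis markers summed to 333.8 to 536.1 RPKM in HFD_STZ_AOS_FMT, 330.8 to 414 RPKM in HFD_STZ_control_FMT and 277.1 to 294.1 RPKM in HFD_STZ. The part of both in these results was not tested.

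**Figure D4:**
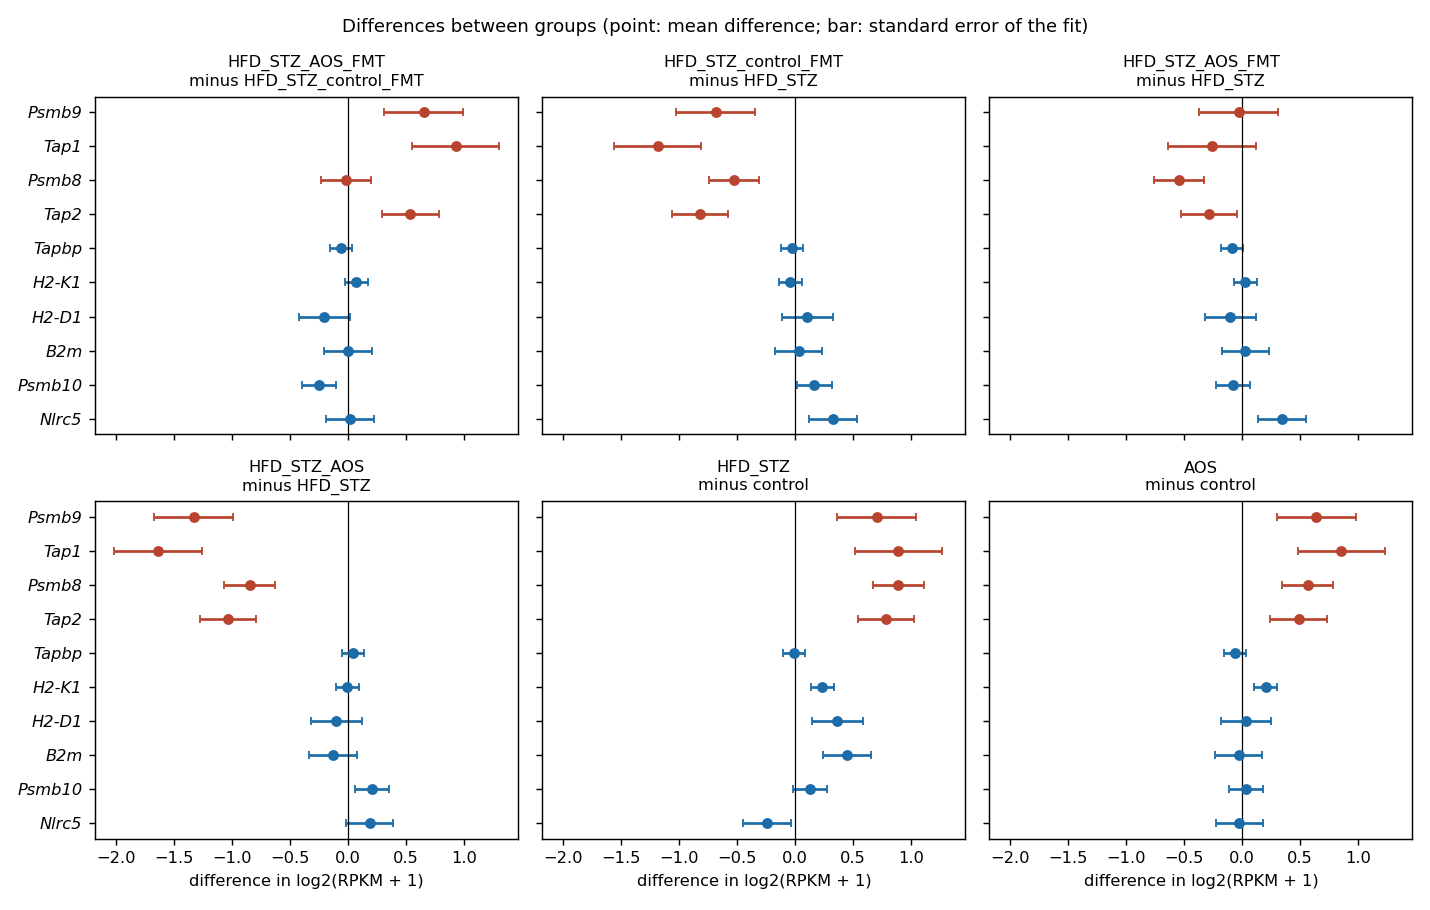
Difference in log2(RPKM + 1) between groups for the 10 members in 6 comparisons, with the first-named group minus the second; points are mean differences, bars standard errors of the fit, red the chromosome 17 neighbours and blue the other members. Tap1 has the point farthest left, at -1.64, in HFD_STZ_AOS minus HFD_STZ, where the 6 blue points lie between -0.13 and 0.21.

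HFD_STZ_AOS_FMT against HFD_STZ_control_FMT asked whether the named source of the FMT made a difference, and it shares no library with the comparisons from which the members were chosen. The fit takes its spread from all 18 libraries, so its standard errors and p-values also draw on the libraries used for that choice. The peptide pump had higher means in HFD_STZ_AOS_FMT, and neither subunit passed the test over all genes. Tap1 averaged 4.01 ± 1.0 RPKM in HFD_STZ_AOS_FMT and 1.79 ± 1.2 RPKM in HFD_STZ_control_FMT (SD, n = 3 each), with groups that did not overlap. Its log2 difference was 0.93 ± 0.38, with an adjusted p of 0.999 in limma's fit over 13874 genes. Tap2 averaged 2.66 ± 0.44 RPKM in HFD_STZ_AOS_FMT and 1.59 ± 0.81 RPKM in HFD_STZ_control_FMT, a log2 difference of 0.54 ± 0.24 with an adjusted p of 0.999 in limma.

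Psmb9 differed by 0.65 ± 0.34 in the same direction, Psmb8 by -0.02 ± 0.22 and Psmb10 by -0.25 ± 0.15, each with an adjusted p of 0.999 in limma. H2-D1 differed by -0.21 ± 0.22, H2-K1 by 0.07 ± 0.10 and Tapbp by -0.06 ± 0.09, while B2m and Nlrc5 were at -0.0018 ± 0.21 and 0.016 ± 0.21. Over 13 alternatives H2-D1 lay between -0.58 and -0.05 and Psmb10 between -0.36 and -0.11. Limma called 0 of the 10 members at an adjusted p under 0.05, and 2 had an unadjusted p under 0.05. Of all genes tested, limma called 0.0216% higher and 0% lower, 4.58% had an unadjusted p under 0.05, and 5.15% had groups that did not overlap with HFD_STZ_AOS_FMT higher, as 1 member had. A further 3.27% had groups that did not overlap with HFD_STZ_AOS_FMT lower, and 0 members did. Without the second HFD_STZ_control_FMT library, in which Tap1 was at 0.59 RPKM, the difference of Tap1 was 0.57 and that of Psmb9 0.39.

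The genes around Tap1 differed in their likeness to Tap1, and the cause of this was not tested. The table held 29 genes with a start within 250 kb of that of Tap1, 6 of them below the filter, and 19 remained beside the 4 neighbours. Over the 18 libraries their r with Tap1 had a median of 0.252, and 4 exceeded 0.7: H2-Ob (0.925), H2-Eb1 (0.791), H2-Ea-ps (0.789) and H2-DMb1 (0.772). All 4 are genes or pseudogenes of MHC class II, and they stand 51.4, 118.3, 157.1 and -34.5 kb from the Tap1 start. H2-Ab1 and H2-Aa, which encode the chains of the class II molecule I-A and lie between H2-Ob and H2-Eb1, had r of 0.307 and -0.001. H2-DMa, which pairs with H2-DMb1 in peptide loading, had r of 0.289, and Brd2, a chromatin reader beside it, 0.018. As deviations from the group means, r was 0.807 for H2-Ob, 0.581 for H2-Eb1, 0.768 for H2-Ea-ps and 0.665 for H2-DMb1. By that measure H2-Ab1 had 0.156, H2-Aa 0.475, H2-DMa 0.178 and Brd2 -0.228, so H2-Aa and H2-Eb1 lay closer together within groups.

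H2-Ob, the beta chain of the class II modulator H2-O, was at 0.95, 0.83 and 0.51 RPKM in HFD_STZ_AOS_FMT and 0.35, 0.25 and 0.15 RPKM in HFD_STZ_control_FMT. It was at 0.03, 0.10 and 0.20 RPKM in HFD_STZ_AOS, against 1.17, 0.59 and 1.29 RPKM in HFD_STZ. AOS libraries had 0.48, 1.34 and 0.51 RPKM and control libraries 0.33, 0.08 and 0.70 RPKM. The second AOS library was again the highest, and the first HFD_STZ_AOS and the second control library were the lowest.

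H2-Ea-ps, which the annotation lists as a polymorphic pseudogene, was at 1.41, 1.35 and 1.94 RPKM in HFD_STZ_AOS_FMT and 1.11, 0.00 and 0.20 RPKM in HFD_STZ_control_FMT. It was at 0.00, 0.40 and 0.50 RPKM in HFD_STZ_AOS and 1.69, 0.59 and 1.93 RPKM in HFD_STZ. AOS libraries had 0.10, 2.63 and 0.40 RPKM, and control libraries 0.41, 0.10 and 0.62 RPKM. Its 2 listed zeros were in libraries where Tap1 was at 0.53 and 0.59 RPKM, the lowest Tap1 levels of their groups. ICR is an outbred stock, and the MHC haplotypes of the mice were not analysed here.

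**Figure D5:**
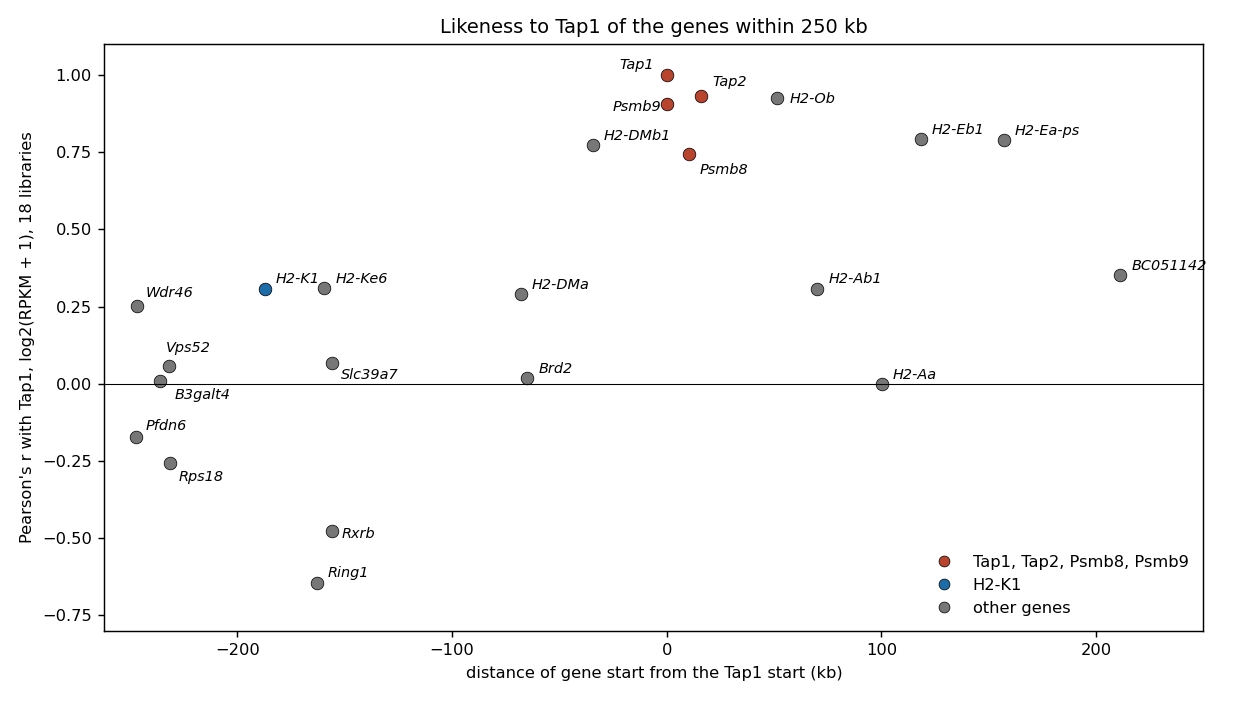
Pearson's r with Tap1 of log2(RPKM + 1) over 18 libraries (vertical axis) against distance of a gene's start from the Tap1 start in kb (horizontal axis), for genes within 250 kb that passed the filter; red marks Tap1, Tap2, Psmb8 and Psmb9, blue H2-K1 and grey other genes. H2-Ob, H2-Eb1, H2-Ea-ps and H2-DMb1 lie above 0.7, while H2-Ab1, H2-Aa, H2-DMa and Brd2 lie at 0.307 or less.

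Of 13873 genes ranked by r with Tap1, Tap2 was at rank 1, H2-Ob at 2, Psmb9 at 3, H2-Eb1 at 4, H2-Ea-ps at 5, H2-DMb1 at 6 and Psmb8 at 8. Of the 8 non-members most like Tap1, 4 lay within 250 kb. The other 4 were Fbxw5 on chromosome 2 (0.761), Esyt3 on chromosome 9 (0.736), Gm7995 on chromosome 14 (0.717) and Ptprm on chromosome 17 (0.711), whose start is 33167 kb away. In all, 11 genes exceeded 0.7, and the median over all genes was -0.024. H2-K1 stood at rank 1031, H2-D1 at 3483, B2m at 3648, Nlrc5 at 5554, Psmb10 at 11698 and Tapbp at 13161. Ranked by deviations from the group means, Tap2 was at rank 2, Psmb9 at 13 and Psmb8 at 67. The other members stood higher by that measure, with H2-D1 at 668, H2-K1 at 958, B2m at 995, Psmb10 at 1970, Nlrc5 at 2472 and Tapbp at 12298. Of the non-members, H2-Ob was at rank 7, Gm7995 at 18, H2-Ea-ps at 21, H2-DMb1 at 104 and Fbxw5 at 142 by deviations. H2-Eb1 fell to 251, Esyt3 to 1620 and Ptprm to 1810. H2-Ob and H2-Ea-ps averaged only 0.548 and 0.854 RPKM, and their read numbers were not estimated. H2-Ob passed the filter only through the libraries highest in Tap1, so nothing is read from its rank. Genes below the filter were not ranked.

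Of 13 MHC class II genes, 9 were tested, and limma called 0 of them in each of the 6 comparisons. In HFD_STZ_AOS against HFD_STZ, 8 of 9 were lower with a median log2 difference of -0.23, against -0.01 for all genes, and 3 had an unadjusted limma p under 0.05. Of all genes tested in that comparison, 12.5% had such a p and 47.7% were higher in HFD_STZ_AOS. The class II list shares these libraries with the choice of the members, so its counts are a description. H2-Ob, among the 9, passed the filter only through libraries of HFD_STZ and AOS. In HFD_STZ against control, 9 of 9 were higher with a median of 0.56, and 6 had an unadjusted limma p under 0.05, against 8.3% of all genes with such a p and 59.5% higher. H2-Eb1, a beta chain of the molecule I-E, averaged 1.30 ± 0.33 RPKM in HFD_STZ_AOS and 2.82 ± 0.60 RPKM in HFD_STZ (SD, n = 3 each). H2-DMb1, a subunit of the class II loading factor, averaged 0.910 ± 0.082 RPKM in HFD_STZ_AOS and 2.26 ± 1.0 RPKM in HFD_STZ. H2-Ab1, at 10.8 ± 3.8 RPKM in HFD_STZ_AOS and 15.3 ± 2.9 RPKM in HFD_STZ, was the third named by the rule.

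The standard proteasome was abundant. Of 15 constitutive and testis subunits of the 20S core, 14 were higher in HFD_STZ_AOS than in HFD_STZ, with a median log2 difference of 0.08, against 47.7% of all genes higher. Limma called 0 of the 15, with 4 at an unadjusted p under 0.05, against 12.5% of all genes. Against the same HFD_STZ libraries, 13 of 15 were higher in HFD_STZ_AOS_FMT, with a median of 0.11, and 13 of 15 in HFD_STZ_control_FMT, with a median of 0.09. The share of all genes that were higher was 43.7% in HFD_STZ_AOS_FMT and 41.1% in HFD_STZ_control_FMT. Germ cell markers summed to 49010 to 56670 RPKM in HFD_STZ_AOS and 43550 to 49230 RPKM in HFD_STZ. Their sums were 47800 to 57390 RPKM in HFD_STZ_AOS_FMT and 47950 to 53530 RPKM in HFD_STZ_control_FMT. The part of germ cells in the proteasome values was not tested. Psmb5, a cutting subunit, averaged 61.1 ± 0.93 RPKM in HFD_STZ_AOS and 53.8 ± 4.3 RPKM in HFD_STZ. Psma6, a ring subunit, averaged 445 ± 14 RPKM in HFD_STZ_AOS and 397 ± 12 RPKM in HFD_STZ, and Psmb2 57.3 ± 0.52 RPKM in HFD_STZ_AOS and 51.2 ± 0.63 RPKM in HFD_STZ (SD, n = 3 each). Of 10 proteasome activators and assembly factors, 9 were higher in HFD_STZ_AOS, with a median of 0.04, 0 limma calls and 3 at an unadjusted p under 0.05. Here too 47.7% of all genes were higher and 12.5% had such a p. Pomp, an assembly chaperone, averaged 60.8 ± 1.1 RPKM in HFD_STZ_AOS and 55.7 ± 3.2 RPKM in HFD_STZ. Psmg1, another assembly chaperone, was at 20.6 ± 0.77 RPKM in HFD_STZ_AOS and 18.7 ± 1.1 RPKM in HFD_STZ, and the activator Psme4 at 108 ± 1.6 RPKM in HFD_STZ_AOS and 115 ± 3.6 RPKM in HFD_STZ.

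Peptide loading and trimming genes beside the members showed small differences. In HFD_STZ_AOS against HFD_STZ, 9 of 12 were lower with a median of -0.03, limma called 0, and 2 had an unadjusted p under 0.05. Over all genes tested, 12.5% had such a p and 47.7% were higher in HFD_STZ_AOS. Erap1, which trims peptides in the endoplasmic reticulum, averaged 1.34 ± 0.38 RPKM in HFD_STZ_AOS and 1.74 ± 0.13 RPKM in HFD_STZ. Tpp2, a cytosolic peptidase, averaged 65.6 ± 1.4 RPKM in HFD_STZ_AOS and 74.3 ± 1.6 RPKM in HFD_STZ, and Sec61g, of the translocation channel, 29.6 ± 2.5 RPKM in HFD_STZ_AOS and 24.8 ± 3.5 RPKM in HFD_STZ (SD, n = 3 each). Of 21 other class I heavy chains and relatives, 6 were tested, and 4 of them were lower with a median of -0.05, 0 limma calls and 0 at an unadjusted p under 0.05. Fcgrt, which encodes the neonatal Fc receptor, averaged 4.93 ± 1.5 RPKM in HFD_STZ_AOS and 5.29 ± 0.17 RPKM in HFD_STZ. Mr1 averaged 1.59 ± 0.069 RPKM in HFD_STZ_AOS and 1.34 ± 0.22 RPKM in HFD_STZ, and H2-T10 averaged 1.21 ± 0.22 RPKM in HFD_STZ_AOS and 1.05 ± 0.56 RPKM in HFD_STZ.

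Interferon gamma signalling and the regulators of class I were measured in 19 tested genes of 21. In HFD_STZ_AOS against HFD_STZ, 14 were lower with a median log2 difference of -0.04, limma called 0, and 2 had an unadjusted p under 0.05. Among all genes tested, 12.5% had such a p and 47.7% were higher in HFD_STZ_AOS. Jak1, a kinase of the interferon receptors, averaged 9.67 ± 0.94 RPKM in HFD_STZ_AOS and 11.2 ± 0.44 RPKM in HFD_STZ. Nfyb, a CCAAT-binding subunit, averaged 2.50 ± 0.17 RPKM in HFD_STZ_AOS and 3.01 ± 0.085 RPKM in HFD_STZ (SD, n = 3 each). Ifng itself was at 0 to 0.06 RPKM in all libraries, and Ciita, the class II transactivator, at 0 to 0.12 RPKM.

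Of 40 interferon-induced genes outside antigen processing, 17 were tested. In HFD_STZ_AOS against HFD_STZ, 12 were lower with a median of -0.07, limma called 0, and 1 had an unadjusted p under 0.05. For all genes tested these shares were 12.5% with such a p and 47.7% higher in HFD_STZ_AOS. Irf7 was at 0.58, 0.52 and 1.03 RPKM in HFD_STZ_AOS and 1.25, 2.74 and 0.94 RPKM in HFD_STZ, and at 0.88, 0.55 and 4.38 RPKM in AOS. Oasl2, an antiviral gene, was likewise highest in the third AOS library, at 5.37 RPKM, and in the second HFD_STZ library, at 4.53 RPKM. The highest Tap1 of these groups was in the second AOS and the third HFD_STZ library. These are single libraries, and the part of interferon in the results was not tested. Dhx58, an RNA sensor, averaged 17.4 ± 1.7 RPKM in HFD_STZ_AOS and 19.8 ± 0.50 RPKM in HFD_STZ.

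In HFD_STZ_AOS_FMT against HFD_STZ_control_FMT limma called 0 genes of each of these 7 lists. The medians were -0.03 for class II genes (4 of 9 higher), 0.02 for the 20S core (9 of 15), -0.01 for activators and assembly factors (4 of 10), and -0.00075 for loading and trimming (6 of 12). They were 0.03 for other heavy chains (4 of 6), 0.0032 for interferon gamma signalling (10 of 19) and -0.03 for interferon-induced genes (5 of 17), against 0.01 for all genes, of which 53.9% were higher. An unadjusted limma p under 0.05 was found for 2, 0, 1, 0, 0, 3 and 0 genes of these lists in the same order, against 4.58% of all genes.

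Most defining markers of leukocytes were low, and in bulk RNA fewer cells of a type and less RNA per cell cannot be told apart. Ptprc, the pan-leukocyte antigen CD45, was at 0.15 to 0.44 RPKM, Cd3e at 0 to 0.44, Cd8a at 0 to 0.10 and Nkg7 at 0 to 0.49 RPKM. Of 14 T and NK cell markers in the table, 10 stayed under 1 RPKM everywhere, and their summed level was 9.71 to 13.1 RPKM in HFD_STZ_AOS and 9.80 to 11.1 RPKM in HFD_STZ. The B cell markers summed to 3.20 to 5.61 RPKM, the dendritic cell markers to 5.39 to 6.93 RPKM, the neutrophil markers to 0.34 to 0.94 RPKM over all libraries, and the endothelial markers to 6.71 to 9.15 RPKM. No marker of these lists was at 0 in every library. The 7 pan-leukocyte markers summed to 9.82 to 136.6 RPKM in HFD_STZ_AOS and 8.34 to 9.04 RPKM in HFD_STZ, and reached 145.5 RPKM in HFD_STZ_AOS_FMT, 85.6 RPKM in HFD_STZ_control_FMT and 137.6 RPKM in control. Cd52, which the epididymis also expresses, made up most of these high sums, at 81.0 to 139.5 RPKM in the 4 libraries high in Crisp1 and 1.11 to 20.2 RPKM in the other 14, and the other 6 markers summed to 4.28 to 7.6 RPKM. Cd68 of macrophages was at 2.36 to 4.94 RPKM, and the 12 macrophage markers summed to 52.7 to 77.4 RPKM in HFD_STZ_AOS and 67.4 to 70.5 RPKM in HFD_STZ. The macrophage sums were 62.4 to 81.8 RPKM in HFD_STZ_AOS_FMT and 66.8 to 93.7 RPKM in HFD_STZ_control_FMT, and 49.5 to 68.6 RPKM in AOS and 60.3 to 62.5 RPKM in control.

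Across the 18 libraries the macrophage sum had r of 0.107 with Tap1, 0.187 with Tap2, 0.292 with Psmb9 and 0.395 with Psmb8. With the class I chains it had r of 0.622 for B2m, 0.525 for H2-K1 and 0.680 for H2-D1. As deviations from the group means the macrophage sum had r of 0.342 with Tap1, 0.330 with Tap2, 0.482 with Psmb9 and 0.594 with Psmb8. By that measure it had 0.431 with B2m, 0.660 with H2-K1 and 0.584 with H2-D1, so the sets lay closer together within groups. The summed level of 6 Leydig cell markers had r of 0.222 with Tap1 and 0.411 with Tap2, and these were 0.525 for Tap1 and 0.749 for Tap2 as deviations from the group means. For Psmb9 and Psmb8 the r of deviations with the Leydig sum was 0.648 and 0.293. The B cell sum had negative r of deviations, at -0.570 with Tap1, -0.737 with Tap2, -0.711 with Psmb9 and -0.651 with Psmb8. These are descriptions of 18 points that share libraries, and the part of these cells in the results was not tested. Of the 5 libraries in which all 4 neighbours were low, the third HFD_STZ_AOS and the second HFD_STZ_control_FMT library were high in Crisp1 and the other 3 were not. Without the 4 libraries high in Crisp1, the mean difference of the neighbours minus that of the other members in HFD_STZ_AOS against HFD_STZ was -1.24, close to the value with all libraries.

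Stretches of 36 bases that also occur in other genes made up 25.2% of Tapbp, 23.2% of H2-D1, 15% of H2-K1, 14.1% of Tap2, 7.19% of Psmb8 and 1.31% of Tap1, and 0% of Psmb9, Psmb10 and B2m. Members were compared with each other on the same strand only, so the overlap of Tap1 and Psmb9 on opposite strands is not counted. H2-K1 shared 11.3% of its stretches with H2-D1, and H2-D1 shared 11% of its own with H2-K1, so reads of these heavy chains may have been split. Overlapping antisense genes are annotated at Tap2, Psmb8, Psmb10 and Tapbp, and the use of strand was not given in the sources used here.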

How the data were processed

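Testis RNA of 18 samples in 6 groups of 3 was measured, with groups and replicate numbers from the labels. The submitters' processing notes name Bowtie 0.12.2 and mm10. How reads were counted, the annotation and the use of strand are not given in the sources used here. A single table deposited by the authors holds RPKM, 1 row to a gene symbol; the unit was read from the values, since the header names none, and 6 rows with repeated symbols were left out. Depth was estimated from steps between low values and is approximate; its precision covers counting error only.

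Values were taken as log2(RPKM + 1). Genes at 1 RPKM or more in 3 or more libraries, 13874 in number, were fitted in limma 3.58.1 (R 4.3.3) with 1 coefficient per group over all 18 libraries, a variance trend, 12 residual and 3.71 prior degrees of freedom. Tests were two-sided, with Benjamini-Hochberg adjustment over all genes and a threshold of 0.05. On simulated data for HFD_STZ_AOS_FMT against HFD_STZ_control_FMT, limma recovered 79.1% of genes given a log2 change of 0.5, 97% at 1 and 100% at 2, and called 9 genes that had none. The changed genes were drawn at random from those with a mean log2(RPKM + 1) above 1, each with its own spread. Tap1 and Psmb9 had within-group SDs of 0.52 and 0.47 on that scale. How often a change of that size would be found in the members was not tested. All p-values rest on variation among these libraries, which may be partly technical. The members and gene lists were chosen with earlier results of these data known. Named genes were the members, up to 3 genes per list with the largest difference in HFD_STZ_AOS against HFD_STZ, genes within 250 kb of Tap1, and the 8 non-members most like it. A gene that this rule names and a motif that was searched are not reported here. Alternatives were median-ratio scaling, no filter, a pseudocount of 0.1, a fit on 2 groups, the replicate block, robust empirical Bayes and each library left out; leaving out 4 libraries high in Crisp1 was added after seeing the data. Figures used Python 3.11.15 and matplotlib 3.10.9.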

Additional observations from a re-analysis of the deposited data

Results flagged for a closer look

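For Tap1, Tap2, Psmb8 and Psmb9 the difference between AOS and its control had the opposite sign with and without the diet and STZ. Every HFD_STZ_AOS library lay below the mean of HFD_STZ, and every AOS library lay above the mean of control. That control mean includes the low control replicate 2. The AOS and control libraries overlapped for Tap1, Tap2 and Psmb9, and did not for Psmb8. Psmb9 in AOS replicate 1, at 2.36 RPKM, lay below control replicates 1 and 3, at 3.63 and 2.43 RPKM. Tap2 in AOS replicate 1 was at 1.79 RPKM, against 1.71 and 2.20 RPKM in those control libraries. The share of all genes with such opposite signs was not counted. The log2 difference of HFD_STZ_AOS against HFD_STZ minus that of AOS against control was -2.49 for Tap1, -1.97 for Psmb9, -1.52 for Tap2 and -1.41 for Psmb8. None of the other 6 members had libraries on opposite sides in this way. These differences were not tested, because the members were chosen from these groups. Without the second control library the difference of AOS against control was 0.41 for Tap1 and 0.28 for Psmb9, and it was 0.20 for Tap2 without the second AOS library.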

How the results depend on the processing

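AOS against control had 0 calls and 0 to 3 with 1 library left out (3 without AOS replicate 2), and HFD_STZ against control had 0 throughout. HFD_STZ_AOS against HFD_STZ had 0 calls, 0 with any 1 library left out, 1 without the filter and 2 without the 4 libraries high in Crisp1. HFD_STZ_AOS_FMT against HFD_STZ had 2 calls, 16 without the filter, 4 with a pseudocount of 0.1, 1 in the fit on 2 groups and 2 to 5 with 1 library left out (5 without HFD_STZ_AOS_FMT replicate 2, 4 without HFD_STZ replicate 2). HFD_STZ_control_FMT against HFD_STZ had 1 call, 4 without the filter, 0 in the fit on 2 groups and 1 to 14 with 1 library left out (14 without HFD_STZ_control_FMT replicate 3). HFD_STZ_AOS_FMT against HFD_STZ_control_FMT had 3 calls, 11 without the filter, 6 in the fit on 2 groups and 2 to 5 with 1 library left out (5 without HFD_STZ_AOS_FMT replicate 2). The cause was not tested.

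In the comparison of the FMT groups the adjusted p of Tap1 lay between 0.772 and 1 over 13 alternatives and its log2 difference between 0.57 and 1.34, while Tap2 had 0.772 to 1 and 0.41 to 0.80. Members near 0 changed sign: Psmb8 was 0.012 with a pseudocount of 0.1 and -0.29 to 0.12 with 1 library left out, B2m -0.15 to 0.15, Nlrc5 -0.042 to 0.11 and Tapbp -0.13 to 0.017, and Tapbp was 0.019 without the 4 libraries high in Crisp1. In HFD_STZ_AOS against HFD_STZ the mean difference of the neighbours minus that of the other 6 members was -1.25, -1.85 with a pseudocount of 0.1 and -1.37 to -1.14 with 1 library left out.

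Replicate numbers were the same in all groups, and no label says whether libraries of the same number belong together. Over 45 pairs of groups and numbers the correlation of deviations lay between -0.246 and 0.411, with a median of 0.001 and 11 over 0.1. Crisp1 was high in replicate 3 of HFD_STZ_AOS_FMT, HFD_STZ_AOS and control, and in replicate 2 of HFD_STZ_control_FMT. Whether libraries of the same number share a batch is not known. The replicate block gave 2 calls for HFD_STZ_control_FMT against HFD_STZ, 2 for HFD_STZ_AOS_FMT against HFD_STZ and 2 for HFD_STZ_AOS_FMT against HFD_STZ_control_FMT, and left the gap of the neighbours at -1.25. Another scaling moved the median of all genes by -0.046 to 0.059. The lowest levels of Psmb8, Psmb9 and Tap1 rest on 14, 10 and 21 estimated reads.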
